A study of Mus musculus with 10 samples.

Results

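Group 2 innate lymphoid cells (ILC2s) of inflamed mouse airways and of their draining lymph node were compared with T cells labelled as naive from the same sites, by where dimethylation of lysine 4 of histone H3 (H3K4me2) was called and how much of it each place carried. The members were all peaks called in these libraries, joined by position. The peaks of the 2 ILC2 libraries and the 2 naive T libraries were merged wherever they lay within 500 bp of each other, which gave 27733 regions of the mm10 genome. Merging the 8 libraries of the series that have a peak list gave 30062. A region was taken to differ between the cell types when a peak was called in both libraries of one type but in none of the other type.

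H3K4me2 marks the nucleosomes beside active or poised promoters and enhancers, so a map of it shows which regulatory elements a cell keeps accessible rather than how much each gene is transcribed. ILC2s are lymphocytes without a rearranged antigen receptor. They respond to the epithelial cytokines IL-33, IL-25 and TSLP and release IL-5, IL-13 and other type 2 products in the airways. Naive T cells carry the T cell receptor with its CD3 and zeta chains, circulate through lymph nodes and have not yet met antigen. Both descend from lymphoid progenitors and share transcription factors such as GATA3, at different levels.

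The mice carried the Gata3-YFP/YFP genotype and had airway inflammation, and cells were sorted by flow cytometry with antibodies and YFP, and the libraries were built with a Nextera transposase protocol. Each type has 1 library from bronchoalveolar lavage, which samples the airway lumen, and 1 from the mediastinal lymph node. The labels give no age, sex, allergen or sort gate, so "naive T" stands for cells sorted under that label, in mice that were inflamed. They do not say how many animals a library pools or whether libraries share animals. Other libraries of the series served as outside points of reference, namely T helper 2 (Th2) cells from the same 2 sites and CD4+ cells of spleen and thymus with 1 library each.

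The start sites of 6 genes lay in the tallest regions with a start site and a gene named by the selection rule that differed in calls or in tags. Only the Cd247 region was called in 1 cell type alone, naive T cells. Those of Cd5, Lck and Prkcq were called in all 4 libraries with fewer tags in ILC2s. Those of Il7r and Il17rb were called in all 4 libraries with more tags in ILC2s. The promoters of these 6 genes are shown. They encode chains or signalling proteins of the T cell receptor (Cd247, Cd5, Lck, Prkcq) on one side and receptors of the cytokines IL-7 and IL-25 (Il7r, Il17rb) on the other. Each run is read 5′ to 3′ on the gene's strand from RefSeq, build GRCm38.p6, with 250 bases before the start and 50 from it. Capitals mark matches to any of 4 motifs searched on both strands, which are AGATAA for GATA factors, AGGTCA as the half-site of ROR receptors, CTTTGA for TCF factors and CCGGAA for ETS factors.
Cd247 promoter, chr1:165788431-165788730, plus strand: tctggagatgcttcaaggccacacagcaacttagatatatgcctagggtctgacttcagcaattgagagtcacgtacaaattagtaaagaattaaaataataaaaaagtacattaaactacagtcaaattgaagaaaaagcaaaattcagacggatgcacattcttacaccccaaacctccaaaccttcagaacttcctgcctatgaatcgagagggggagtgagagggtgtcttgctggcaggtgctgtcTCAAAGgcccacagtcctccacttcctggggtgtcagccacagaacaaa
Cd5 promoter, chr19:10738925-10739224, minus strand: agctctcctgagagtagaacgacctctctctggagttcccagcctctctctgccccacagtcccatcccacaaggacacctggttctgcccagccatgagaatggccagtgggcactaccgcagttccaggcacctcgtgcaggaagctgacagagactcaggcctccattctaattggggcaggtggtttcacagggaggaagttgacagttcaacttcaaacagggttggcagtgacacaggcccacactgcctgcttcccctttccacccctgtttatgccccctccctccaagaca
Lck promoter, chr4:129558323-129558622, minus strand: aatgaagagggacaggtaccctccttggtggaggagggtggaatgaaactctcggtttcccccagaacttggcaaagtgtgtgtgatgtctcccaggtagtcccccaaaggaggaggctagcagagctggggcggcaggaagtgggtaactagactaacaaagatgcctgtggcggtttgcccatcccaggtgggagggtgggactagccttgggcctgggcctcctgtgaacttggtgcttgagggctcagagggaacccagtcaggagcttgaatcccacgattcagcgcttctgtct
Prkcq promoter, chr2:11172132-11172431, plus strand: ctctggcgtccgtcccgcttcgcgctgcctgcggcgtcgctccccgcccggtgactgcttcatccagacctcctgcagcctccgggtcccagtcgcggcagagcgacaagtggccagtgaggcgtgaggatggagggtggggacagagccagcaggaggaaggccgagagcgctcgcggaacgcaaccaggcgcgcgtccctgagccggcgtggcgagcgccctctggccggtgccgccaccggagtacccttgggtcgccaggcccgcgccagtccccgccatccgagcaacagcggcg
Il7r promoter, chr15:9529827-9530126, minus strand: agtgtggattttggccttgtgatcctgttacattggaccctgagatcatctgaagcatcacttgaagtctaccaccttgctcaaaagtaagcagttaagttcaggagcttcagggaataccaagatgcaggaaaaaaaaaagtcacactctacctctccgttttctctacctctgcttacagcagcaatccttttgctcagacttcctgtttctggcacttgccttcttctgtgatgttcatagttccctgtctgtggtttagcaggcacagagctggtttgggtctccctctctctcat
Il17rb promoter, chr14:30008847-30009146, minus strand: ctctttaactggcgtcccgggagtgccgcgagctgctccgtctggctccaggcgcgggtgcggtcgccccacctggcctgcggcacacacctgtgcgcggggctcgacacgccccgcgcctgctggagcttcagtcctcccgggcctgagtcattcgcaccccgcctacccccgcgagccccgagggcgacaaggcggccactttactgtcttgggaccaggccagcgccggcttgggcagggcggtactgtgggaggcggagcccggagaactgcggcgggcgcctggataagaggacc
The promoter of Cd247 holds 1 match, the TCF letters on the minus strand directly after the start, and the other 5 hold none of the 4 motifs. Over all 21263 promoters in the table, 9.7% held the GATA motif, 14.7% the ROR half-site, 14.4% the TCF motif and 18.7% the ETS motif. Among 262 promoters in regions called only in ILC2s these shares were 9.9%, 11.8%, 12.2% and 10.7%. Among 10247 promoters in regions called in all 4 libraries they were 5.7%, 11%, 11.3% and 31.8%. A match is a run of letters and shows no binding.

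Sequencing depth was close, with 23926669 and 24614614 tags in the naive T libraries and 24945548 and 22830388 in the ILC2 libraries. The tag minimum behind a peak came to between 39.9 and 40.4 tags per 10000000 in all libraries. The lavage naive T library stood apart, with 16725 peaks against 21985 in the lymph node one and 21380 and 21394 in ILC2s. Its share of tags in peaks was 37.34%, against 53.68% in naive T cells of the lymph node and 43.2% and 44.99% in ILC2s. ILC2 libraries shared 88.1% of the regions that either called, and naive T libraries 64.5%, with 1565 regions called only in the lavage and 6558 only in the lymph node. Peaks on chromosome Y numbered 2 and 0 in naive T cells against 5 and 4 in ILC2s, and the part of animal sex was not tested. Of 8 T cell markers, 7 summed to fewer tags in both ILC2 libraries, with totals of 14214.8 and 17393.3 in naive T cells against 1299.2 and 1512.0 in ILC2s, and Themis and Cd6 had no peak in ILC2s. Of 8 ILC2 markers, 7 summed to more tags in both ILC2 libraries, with totals of 5773.8 and 4544.4 in naive T cells against 21541.6 and 22792.7 in ILC2s. Cd3g and Il17rb, the remaining marker of each list, were the nearest gene of no region because a neighbour lay over the same peak.

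Regions called only in ILC2s outnumbered those called only in naive T cells. Of 27733 regions, 3234 (11.7%) were called in both ILC2 libraries and neither naive T library, and 824 (2.97%) the other way. A further 13597 regions (49.0%) were called in all 4 libraries, and the remaining 10078 had mixed calls. The largest mixed group was 4176 regions called only in the lymph node naive T library, followed by 1823 called in both ILC2 libraries and the lymph node naive T library. Another 874 were called in both ILC2 libraries and the lavage naive T library. The excess of ILC2 regions was not the same at the 2 sites. In lavage, 6089 regions were called in the ILC2 and not in the naive T library and 1622 the reverse, whereas in the lymph node the numbers were 5043 and 5461. When the 4 lists were cut to the same number of peaks, 16725, by normalized tag count, the 2 numbers were 1861 and 1275, so the share of ILC2 regions among those that differ went from 79.7% to 59.3%. With lavage naive T cells left out they were 4146 and 5052. With lymph node naive T cells left out they were 5072 and 1441.

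**Figure D1:**
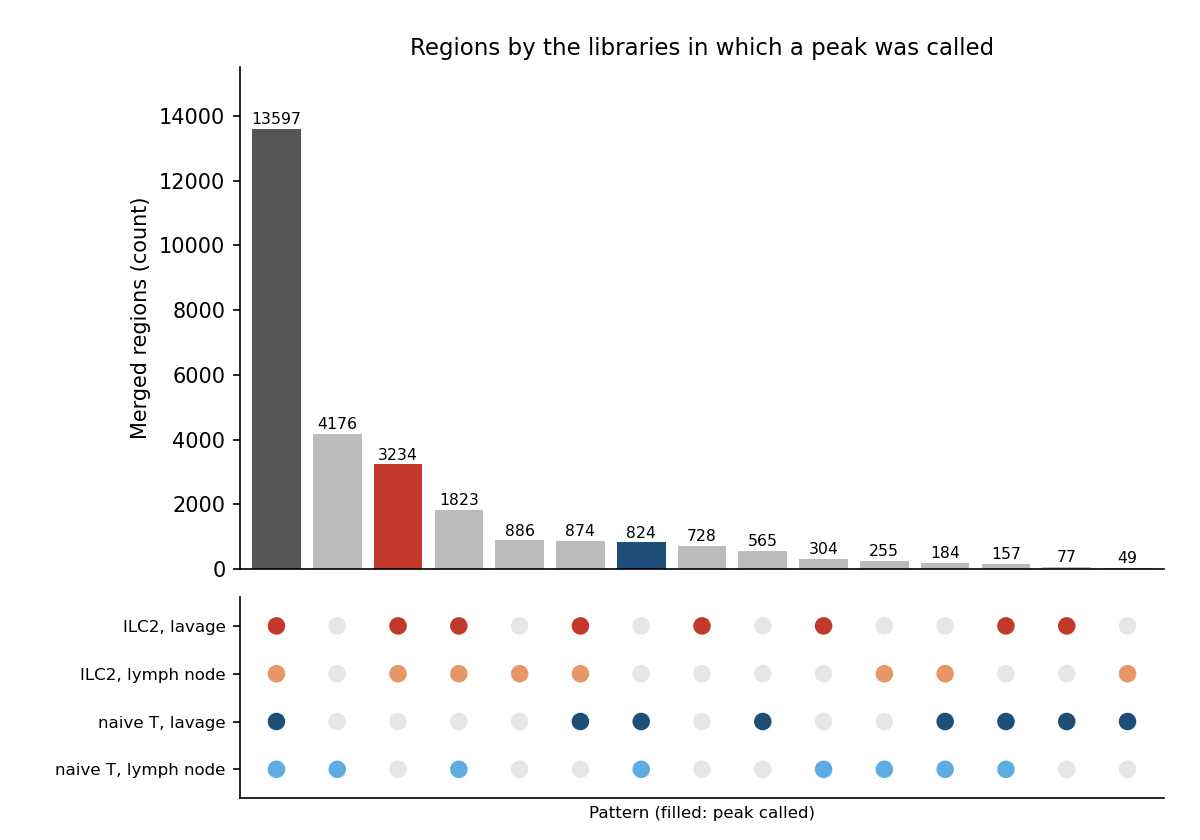
Number of merged regions (y axis) for each combination of the 4 libraries in which a peak was called (x axis, filled circles). The bar for regions called in all 4 libraries reaches 13597, that for both ILC2 libraries alone 3234 and that for both naive T libraries alone 824.

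Differing regions were mostly low and short. The height of a region is its normalized tag count, the tags in its peaks per 10000000 tags of the library. In regions called only in ILC2s the median height was 78.2 tags in lavage and 82.8 in the lymph node, and in those called only in naive T cells 69.4 and 118.8. Regions called in all 4 libraries had medians between 182.6 and 255.1 tags. The lower of the 2 libraries reached 200 tags in 232 ILC2 regions and 49 naive T regions, and 500 tags in 31 and 16. The lowest members held 36.8 tags in an ILC2 library and 38 in a naive T library, close to the calling minimum. Just outside the rule lay 2697 regions called in both ILC2 libraries and 1 naive T library, where that naive T library had a median of 85.3 tags. On the other side lay 341 regions called in both naive T libraries and 1 ILC2 library, at a median of 48.2 tags there. Median region length was 1833.5 bp for ILC2 regions and 2126.5 bp for naive T regions, against 3532 bp for regions called in all 4 libraries.

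Few differing regions lay at the ends of genes. In all, 9.2% of ILC2 regions and 11.2% of naive T regions lay over an end of a RefSeq gene, where promoters are found, while 63.7% of regions called in all 4 libraries did. Within a gene lay 56.4% of ILC2 regions and 44.4% of naive T regions, and outside any gene 34.4% and 44.4%. ILC2 regions also lay near each other: 40.9% had another ILC2 region as a direct neighbour in the merged list, compared with 18.2% of all other regions. For naive T regions the shares were 17.2% and 5.3%. The longest unbroken run held 9 ILC2 regions over 232.6 kb at chr5:90676825-90909427, a cluster of CXC chemokine genes with Cxcl1, Cxcl2, Cxcl3, Cxcl5 and Pf4. There the region over Cxcl2, which encodes an attractant of neutrophils, held 170.0 and 155.9 tags in ILC2s, and that over Cxcl3 held 167.6 and 134.9. The longest naive T run held 5 regions over 68.5 kb at chr3:52633713-52702259, with no named gene within 100 kb of any of them.

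Libraries that took no part in the choice were read at both kinds of region. Of the ILC2 regions, 10.42% had a peak in lavage Th2 cells, 11.5% in lymph node Th2 cells, 1.61% in spleen and 6.83% in thymus CD4+ cells. Over all 27733 regions the shares were 51.2%, 50.3%, 70.1% and 63.7%. Of the naive T regions, 33.74%, 36.41%, 93.81% and 57.77% had a peak in those libraries. In no other library were 2533 ILC2 regions (78.32%) and 23 naive T regions (2.79%) called, against 5597 (20.18%) of all regions. Both Th2 libraries called 231 of the ILC2 regions (7.14%), against 47.15% of all regions. Over the ILC2 regions that a Th2 library called, the median height was 61.1 tags in lavage and 59.8 in the lymph node. Th2 cells and naive T cells are both T cells, and the spleen and thymus cells were sorted for CD4, so these libraries share the lineage of one side of the contrast.

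**Figure D2:**
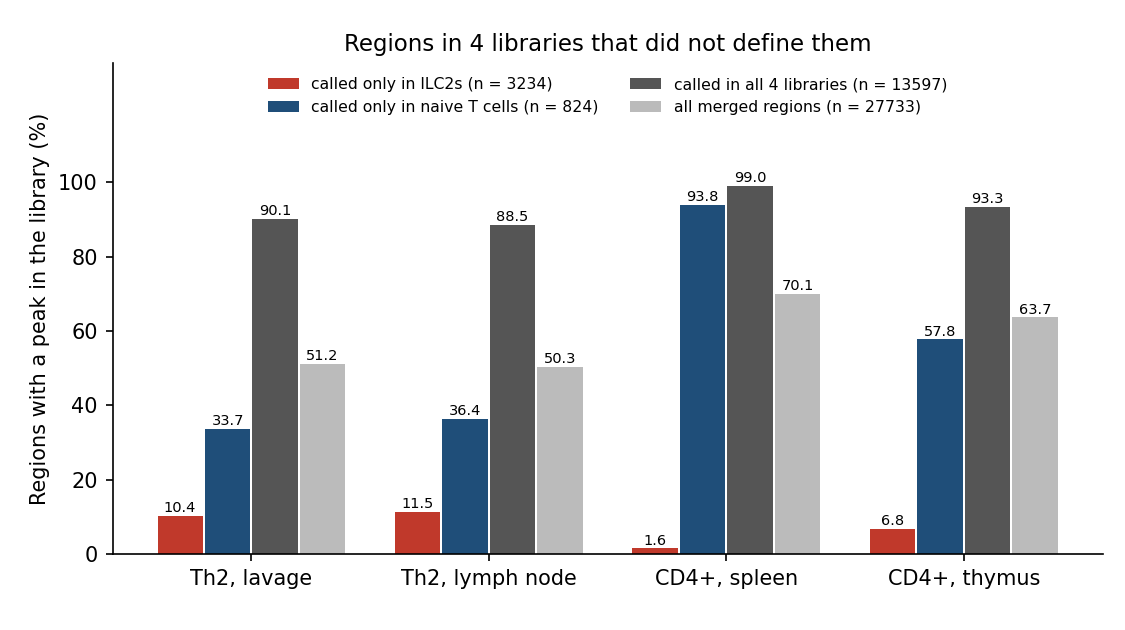
Share of regions (y axis, percent) with a peak in each of 4 libraries that did not define them (x axis), for regions called only in ILC2s, only in naive T cells, in all 4 libraries, and all merged regions. In spleen CD4+ cells the bars stand at 1.61% for ILC2 regions and 93.81% for naive T regions.

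The tallest region called only in ILC2s lay inside Notch2, a receptor of the Notch family, at chr3:98043283-98064991, with 1251.5 tags in lavage and 1402.5 in lymph node ILC2s. Th2 cells had 39.3 and 73.3 tags there, and spleen and thymus none. Rgs18, a regulator of G protein signalling, followed with 1259.1 and 1109.0 tags at chr1:144764208-144777173. Sema6d, a semaphorin, had 1190.2 and 987.3 tags at chr2:124608737-124623513. These 3 regions are between 12965 and 21708 bp long, overlap their genes and hold no start site listed for them. A region 22947 bp from Arg1, the arginase that ILC2s are known for, held 908.8 and 1107.7 tags at chr10:24950417-24961204. No T cell library of the series had a peak in the Rgs18, Sema6d or Arg1 region. Kit, the receptor of stem cell factor, had 852.7 and 856.8 tags over its starts at chr5:75574093-75584644, and the thymus library held 193.3 tags in the same region. Trps1, a repressor with a GATA-type zinc finger, had 781.3 and 944.4 tags at chr15:50810307-50819735, with 135.3 and 41.3 in Th2 cells. The region over Zcchc10 at chr11:53329167-53338925, beside Aff4, had 876.3 and 1014.0 tags and was also tall in Th2 cells, with 398.3 and 440.6. The other 3 of the 10 tallest lay in Pan3, a gene of messenger RNA deadenylation, in Cep290, a gene of cilia, and at chr2:9172856-9181822, more than 100 kb from any gene in the table, and ranged from 774.9 to 1024.1 tags. The rule behind these 10 asks for no naive T peak and ranks by the lower ILC2 library. The lack of naive T peaks and the likeness of the ILC2 pair are therefore set or favoured by the choice.

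The tallest region called only in naive T cells covered Cd247, which encodes the zeta chain of the T cell receptor complex, over 44647 bp at chr1:165785313-165829960. It held 2072.3 tags in lavage and 3960.7 in lymph node naive T cells, 1345.9 and 1430.4 in Th2 cells, 2820.7 in spleen and 2847.7 in thymus. The promoter printed first above lies in it. Cd6, a receptor that tunes T cell activation, held 2 such regions, with 1605.3 and 1260.6 tags in the taller and 1035.2 and 808.0 in the other. Themis, needed for T cell selection in the thymus, had 1196.6 and 1293.5 tags over its starts, and 1920.0 in thymus. Cd4, the coreceptor, had 945.8 and 1251.3 tags within the gene and 2057.6 in thymus. Cd40lg, the ligand by which helper T cells act on B cells, had 891.1 and 1322.4 tags and was not called in thymus. Izumo1r, of the folate receptor family, had 887.7 and 895.8 tags and 74.1 in thymus. Slamf1 and Sh2d1a, a receptor and the adaptor that binds its family, had 1047.4 and 853.2 tags and 742.7 and 909.2 tags. The last of the 10 lay 6129 bp from Gm52008, with 896.0 and 798.7 tags. All 10 were called in both Th2 libraries and in spleen, and 9 of them in thymus.

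**Figure D3:**
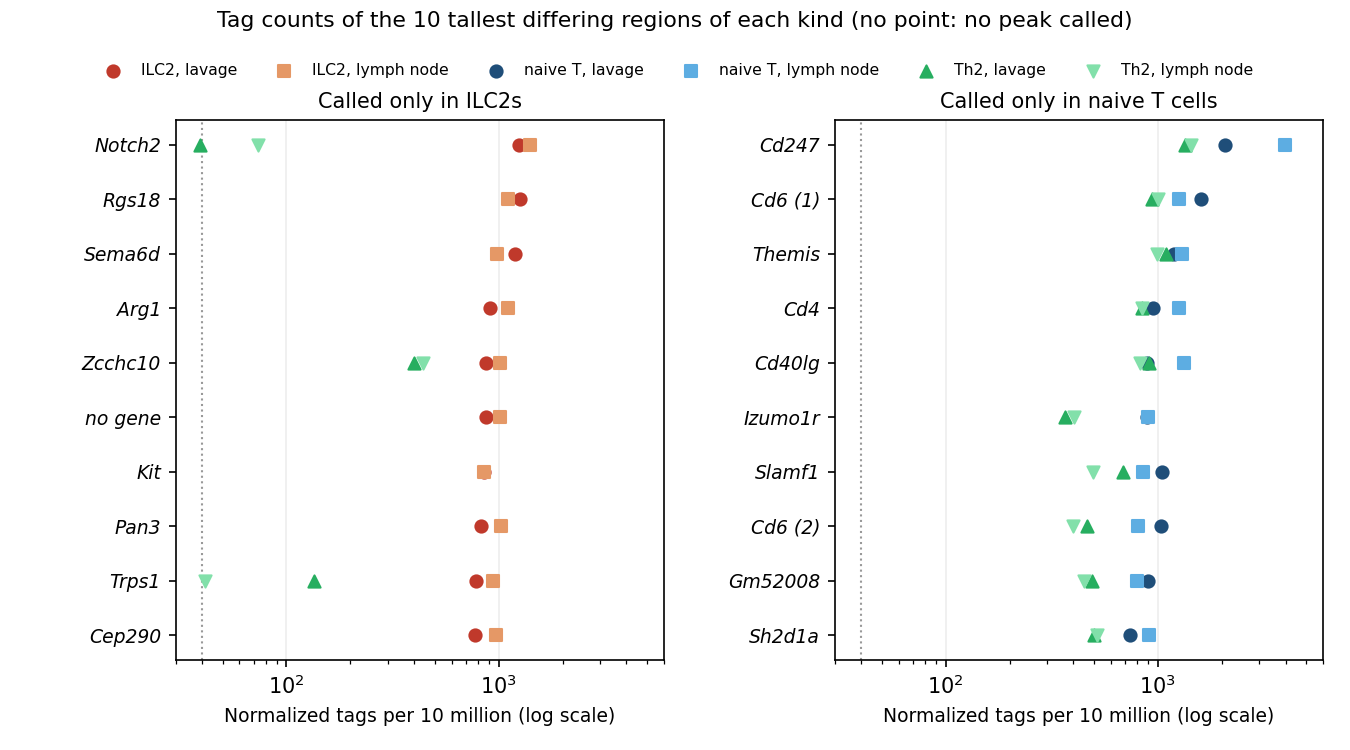
Normalized tags per 10000000 (x axis, log scale) of the 10 tallest regions called only in ILC2s and the 10 tallest called only in naive T cells (rows, by nearest gene), 1 point per library, with no point where no peak was called. Notch2 reaches 1402.5 tags in ILC2s and Cd247 3960.7 in naive T cells, and Th2 points lie in all naive T rows. The spleen and thymus libraries are not drawn.

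Counted by nearest gene within 100 kb, 2075 genes had at least 1 ILC2 region, 653 had a naive T region and 111 had both, of 12805 genes with any region. At least 3 ILC2 regions fell to 200 genes, and at least 5 to 46 genes. For naive T regions the numbers were 25 and 0. Itpr1, the receptor through which inositol trisphosphate releases calcium, had the most, with 11 ILC2 regions of 40.5 to 158.3 tags in lavage spread over a gene of 338 kb. Plcb4, a phospholipase C that makes inositol trisphosphate, had 9 of 90.6 to 531.2 tags in lavage, and none of its 9 had a peak in a Th2 library. Med12l, a relative of a Mediator subunit, also had 9, and Inpp4b, a phosphoinositide phosphatase, had 8. The nuclear receptor gene Rora had 8, from 38.9 to 244.9 tags in lavage and 57.4 to 326.8 in the lymph node. Stxbp4 and Sema6d had 8 each, and Rabgap1l, the Rac activator Tiam1 and the DNA demethylase gene Tet2 had 7 each. The tallest of the Tet2 regions held 557.2 and 708.3 tags. With a limit of 10 kb in place of 100 kb, Sema6d and Tet2 kept 4 each and Itpr1 all 11. Long genes have more room for regions, and 9 of these 10 genes span between 161.6 and 792.0 kb.

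On the other side the most naive T regions fell to Foxp1, a forkhead factor of T cell quiescence, Il21r, the IL-21 receptor, and Gm52008, with 4 each. With the limit of 10 kb Foxp1 and Il21r kept 4 and Gm52008 kept 1. The Foxp1 regions held 39.7 to 241.2 tags in lavage and 88.6 to 231.2 in the lymph node. The tallest Il21r region held 284.2 tags in lavage and 992.1 in the lymph node. Of the genes with 3 and no ILC2 region, the 7 with the most tags over all their regions were Foxo1, a forkhead factor of T cell homing and survival, Fyn, a kinase of T cell receptor signalling, Cblb, a ubiquitin ligase that restrains it, the kinase genes Itpkb and Pip4k2a, the Ras inhibitor gene Rasa3, and Znrf2. At Foxo1 the heights were 43.0 to 103.3 tags in lavage and 232.4 to 443.6 in the lymph node, so the lavage library was the lower one in all 3 regions. No region near these 10 genes was called only in ILC2s.

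At the 13597 regions called in all 4 libraries, the height could be compared directly. Heights were set on a log2 scale, centred on each library's median and tested with limma, with the Th2 pair in the fit at the 11669 regions it also called so that 6 libraries share 1 estimate of the spread. Height was larger in ILC2s at 336 regions (2.47%) and smaller at 172 (1.26%) at an adjusted p under 0.05, and 2495 regions had an unadjusted p under 0.05. In each of the 336 and 172 regions the 2 ILC2 libraries lay on one side of the 2 naive T libraries, with the same direction in lavage and lymph node. The test that picked these regions used the same libraries and favours both traits, so neither is a separate result. The median log2 fold change was 1.57 in the higher and -1.6 in the lower regions. Median heights in the higher regions were 178.5 and 227.9 tags in naive T cells against 509.5 and 548.8 in ILC2s, and in the lower regions 414.6 and 594.8 against 130.1 and 129.2. These p-values measure a difference against the spread between these libraries, which holds site, animals and technical differences together. The naive T pair was the most spread, with an SD across regions of 0.69 for the log2 difference between its libraries, against 0.27 for ILC2s and 0.4 for Th2 cells. The numbers called hang on single libraries. Without lavage ILC2s limma called 0 higher and 0 lower, with 1323 at an unadjusted p under 0.05, and without lymph node ILC2s 4 and 8. Without lavage naive T cells it called 1653 and 914, without lymph node naive T cells 796 and 457, and without the Th2 library of lavage or lymph node 134 and 72 or 130 and 71. On the 4 ILC2 and naive T libraries alone it called 123 and 62, and of 54 changed regions that are named or belong to the gene lists below, 26 lost the call there with their direction kept.

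Srp9, a subunit of the signal recognition particle, was the nearest gene of the higher region with the smallest p, 14548 bp away at chr1:182099977-182110189. It held 52.7 and 69.1 tags in naive T cells against 619.3 and 685.5 in ILC2s, a log2 fold change of 3.62 (SE 0.13, n = 2 libraries a type, adjusted p = 0.0026 with limma). Over Rad50, a DNA repair gene known to hold a control region of the type 2 cytokine genes beside it, heights were 229.5 and 251.5 tags against 1978.3 and 2223.8, a log2 fold change of 3.31 (SE 0.15). On the same chromosome, Aff4, a scaffold of transcription elongation, had 262.9 and 330.3 against 1757.4 and 1965.8 tags, a log2 fold change of 2.84. Notch2 had 196.9 and 294.2 against 1443.5 and 1870.3 tags over its start, next to the tallest ILC2 region, a log2 fold change of 2.95. Mgat5, a glycosyltransferase, had 70.6 and 85.3 against 579.7 and 661.8 tags, a log2 fold change of 3.18. The adjusted p of these 5 ran from 0.0026 to 0.0029 with limma. They were picked for the smallest p, so the gap between the types follows from the choice.

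The 5 lower regions with the smallest p were led by genes of the CD3 cluster. Cd3e, a signalling chain of the antigen receptor, had heights of 660.8 and 842.2 tags in naive T cells against 65.7 and 78.8 in ILC2s, a log2 fold change of -3.19 (SE 0.13, n = 2 libraries a type, adjusted p = 0.0026 with limma). Cd3d, beside it, had 1904.6 and 2736.2 against 264.1 and 275.1 tags, a log2 fold change of -2.90. A region 18315 bp from Thy1, a surface glycoprotein of T cells that ILC2s also bear, had 438.4 and 659.4 against 58.5 and 60.4 tags. Zc3h12d, an RNA-binding protein of lymphocytes, had 1388.8 and 1332.5 against 69.0 and 80.6 tags, a log2 fold change of -4.01. Arhgef10, a guanine nucleotide exchange factor, had 552.5 and 907.2 against 58.1 and 47.7 tags, a log2 fold change of -3.57. The ILC2 heights of Cd3e, Thy1, Zc3h12d and Arhgef10, between 47.7 and 80.6 tags, were near the calling minimum.

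**Figure D4:**
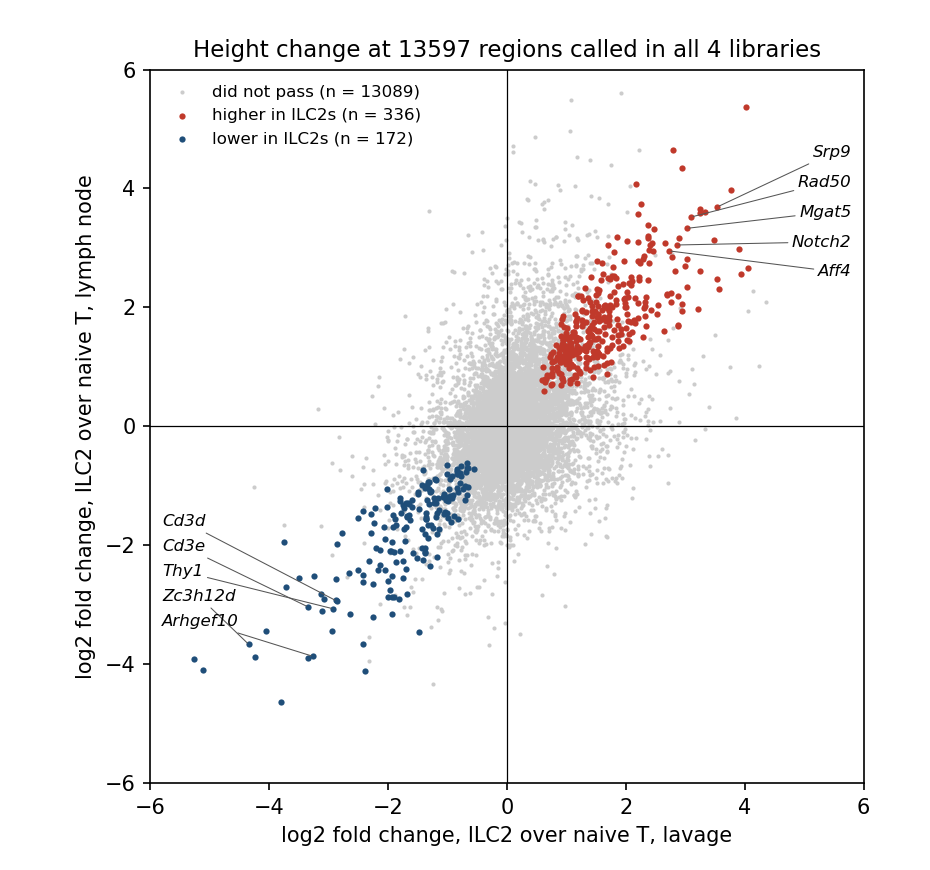
Log2 fold change of height, ILC2 over naive T, in lavage (x axis) and in the lymph node (y axis), 1 point per region called in all 4 libraries, with each library centred on its median. The 336 higher regions lie in the upper right and the 172 lower ones in the lower left, and the 5 of each with the smallest p carry their nearest gene.

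Most regions that changed in height also changed in width. Width is the summed length of a library's peaks in a region. It was larger in ILC2s at 278 regions (2.04%) and smaller at 172 (1.26%). Of the 336 regions higher in ILC2s, 198 were also wider, and of the 172 lower, 112 were also narrower. The median log2 fold change of width was 1.19 in the higher and -1.41 in the lower regions. Tags per kb of peak had medians of 0.4 and -0.36 in the same regions, and 33 of the higher and 27 of the lower regions had the opposite sign in tags per kb. By that measure 63 regions (0.463%) were higher and 22 (0.162%) lower. Rps6ka5, a kinase that phosphorylates histone H3, had the smallest p among wider regions, with 1763 and 1791 bp in naive T cells and 14195 and 16208 bp in ILC2s, a log2 fold change of width of 3.04 (SE 0.11, adjusted p = 0.0038). Its tags per kb had a log2 fold change of -0.12 (SE 0.13). The adaptor gene Grb2 widened from 2844 and 2545 bp to 11675 and 11365 bp, and Tmem86a from 2160 and 2051 bp to 11296 and 10928 bp. A region 17943 bp from Trgc1, a constant gene of the gamma chain of the T cell receptor, had 1995 and 1575 bp against 14974 and 15012 bp, and 94.9 and 102.8 against 961.3 and 962.3 tags. Among narrower regions, Cd5 went from 34833 and 28022 bp to 1893 and 2389 bp, a log2 fold change of -3.93 (SE 0.15, adjusted p = 0.0038). In 44 of the higher and 19 of the lower regions tags per kb passed the test in the same direction as height. Cd3d was one of them, with a log2 fold change of -1.42 (SE 0.1, adjusted p = 0.013). Without either ILC2 library limma called 0 wider and 0 narrower, with 1271 (lavage left out) and 1219 (lymph node left out) at an unadjusted p under 0.05. Without lavage naive T cells it called 792 and 639.

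Some genes had both kinds of difference. Of all 12805 genes with any region, 2075 had an ILC2 region and 653 a naive T region. Of 291 genes with a region higher in ILC2s, 159 also had an ILC2 region and 17 a naive T region. Of 158 genes with a lower region, 64 also had a naive T region and 21 an ILC2 region. Genes with more regions can meet both conditions more readily, and the part of this was not tested.

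Gene lists by role are described next, each by its regions called in 1 cell type and its common regions that passed the height test. Over all 27733 regions, 11.7% were called in the ILC2 pair alone (ILC2-only) and 2.97% in the naive T pair alone (naive-only), and the median log2 fold change of all common regions was -0.01. Secreted products of type 2 cells and of tissue responses come first. Their 28 genes had 63 regions, 25 of them ILC2-only and 1 naive-only. Of 14 common regions, 4 rose, 0 fell and the median was 1.08. Il5, the cytokine that sustains eosinophils, had 79.8 and 46.7 tags in naive T cells against 369.6 and 424.9 in ILC2s, a log2 fold change of 2.88 (SE 0.39, adjusted p = 0.022), and Th2 cells held 283.0 and 315.9. The regions over Il13 and Il4, the other defining type 2 cytokines, were called in lavage naive T cells, with 131.7 and 187.7 tags, and not in the lymph node ones, so neither met the rule. In ILC2s they held 1140.9 and 1071.8 tags (Il13) and 478.6 and 507.7 tags (Il4). Il6, a cytokine of inflammation, had 6 ILC2 regions, the tallest over its start with 665.0 and 662.3 tags at chr5:30011200-30020392. Csf2, the gene of the growth factor GM-CSF, had 4, of 507.9 and 481.8 tags over its start, and the T cell attractant gene Ccl1 had 3. Il9 had 2, of which the taller held 88.2 and 129.2 tags, and Tph1, the enzyme of serotonin synthesis, had 1 with 169.2 and 81.9 tags. Areg, a growth factor of tissue repair, had an ILC2 region 14089 bp away with 109.8 and 112.1 tags. Lif and Tnfsf11 passed the height test with log2 fold changes of 1.15 (SE 0.20) and 1.02 (SE 0.13). All 4 regions that rose, at Il5, Lif, Tnfsf11 and Csf2, lost the call on the 4 libraries alone, at adjusted p of 0.081, 0.12, 0.062 and 0.084. Il3, Ccl22, Penk, Tnf, Tnfsf18 and Retnlg were the nearest gene of no region.

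Receptors of alarmins, the danger signals of epithelium, and of cytokines come next. Their 25 genes had 73 regions, of which 33 had mixed calls. ILC2-only were 5 (6.8%, against 11.7% of all regions) and naive-only 2 (2.7%, against 2.97%). Of 33 common regions 1 rose and 0 fell, at a median of 0.36. The median was -0.12 in lavage and 0.53 in the lymph node. Il1rl1, the receptor of IL-33, had 1 ILC2 region with 454.2 and 457.3 tags, and its main region at chr1:40422920-40448385 held 2998.1 and 2893.1 tags in ILC2s, 181.4 in the lavage naive T library and no called peak in the lymph node one. Next to it, Il18r1 and Il18rap, the chains of the IL-18 receptor, had 1 and 2 ILC2 regions of 150.7 to 330.7 tags. Il7r, the receptor chain of IL-7 and TSLP whose promoter is printed above, was the common region that rose, with 931.6 and 1384.2 against 2362.7 and 2569.4 tags and a log2 fold change of 1.30 (SE 0.16, adjusted p = 0.017). Il17rb, the receptor of IL-25, shares a region with its neighbour Chdh at chr14:30003546-30030418, which held 192.2 and 546.8 against 2250.5 and 2339.0 tags, a log2 fold change of 3.01 (SE 0.33, adjusted p = 0.014). On the 4 libraries alone the adjusted p was 0.068 for Il7r and 0.056 for the Chdh region, so neither call held. Il2ra, a chain of the IL-2 receptor, had 1960.2 and 910.0 against 2710.3 and 2913.7 tags, a log2 fold change of 1.26 (SE 0.50) that did not pass at an adjusted p of 0.26. Il2rb and Il4ra each had 1 region called only in naive T cells.

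Receptors of neuropeptides, lipids and adrenergic signals had 54 regions over 24 genes, 19 of them ILC2-only and 0 naive-only. Of 17 common regions 5 rose and 0 fell, at a median of 0.16. Nmur1, the receptor of neuromedin U that marks ILC2s, had 2 ILC2 regions, with 285.4 and 364.9 tags over its starts at chr1:86385518-86390040. Vipr2, a receptor of vasoactive intestinal peptide, had 2 ILC2 regions of 151.1 to 286.6 tags and 2 common regions that rose. The one over its start went from 37.6 and 133.7 to 629.4 and 647.4 tags, a log2 fold change of 3.35 (SE 0.47, adjusted p = 0.038), in a fit on the 4 libraries because neither Th2 library called it. Calcrl, a receptor chain for calcitonin gene-related peptide, had 3 ILC2 regions and rose over its start from 371.6 and 667.9 to 1155.3 and 1170.4 tags. Cysltr2, a receptor of cysteinyl leukotrienes, had 4 ILC2 regions of 43.3 to 107.0 tags and 1 common region that rose. Ptgir, the prostacyclin receptor, rose with a log2 fold change of 1.90 (SE 0.26). When no region was fitted with Th2 libraries, all 5 lost the call, at adjusted p of 0.054 (Cysltr2) to 0.067 (Vipr2 and Ptgir). The neighbouring fatty acid receptor genes Ffar1, Ffar2 and Ffar3 had 5 ILC2 regions, led by 473.8 and 470.9 tags 7974 bp from Ffar2. Ptger4 and Cysltr1 had 1 each. The genes Ptgdr2, Ptgdr, Ptger1, Ltb4r1, Chrna7, Gpr183, Lpar6 and S1pr4 were the nearest of no region.

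Transcription factors of innate lymphoid cells had 207 regions over 30 genes, each gene with at least 1. Of these regions 44 were called only in ILC2s, at 16 genes, and 4 only in naive T cells, and of 66 common regions 9 rose and 2 fell, at a median of 0.63. Gata3 itself, the factor that defines the type 2 programme and carries the YFP allele, had 1 region with 1683.1 and 2107.7 against 3460.7 and 3461.6 tags, and its log2 fold change of 1.06 (SE 0.21) did not pass at an adjusted p of 0.059. Tox, a factor needed for innate lymphoid development, had 5 ILC2 regions and 2 common regions that rose, the taller from 191.0 and 221.4 to 1440.7 and 1526.0 tags, a log2 fold change of 3.03 (SE 0.32, adjusted p = 0.013). Zeb2 had 3 ILC2 regions and 2 that rose, one from 166.4 and 77.2 to 752.0 and 1000.9 tags. Rora had its 8 ILC2 regions and 1 that rose from 182.6 and 273.8 to 476.2 and 597.0 tags, a log2 fold change of 1.44 (SE 0.16, adjusted p = 0.014), while its tags per kb had a value of -0.09. Pparg, a lipid-sensing nuclear receptor, had 4 ILC2 regions, of which 2 also held 147.7 to 351.0 tags in Th2 cells. Epas1, which encodes HIF-2 alpha, had 4 with 68.1 to 251.0 tags. Rbpj, the DNA-binding partner of Notch, had 5 of 39.3 to 316.2 tags, and Ahr, the aryl hydrocarbon receptor, had 3. The Notch receptors went opposite ways, since Notch1 fell from 1026.5 and 1597.4 to 517.1 and 445.5 tags, a log2 fold change of -1.23 (SE 0.15, adjusted p = 0.018), and Notch2 rose as given above. Bcl11b, a factor of T cell commitment that ILC2s also use, fell with a log2 fold change of -0.93 (SE 0.13, adjusted p = 0.023). Runx1, Runx2 and Hlf each had 1 region that rose. The calls lost on the 4 libraries alone were those of Notch1 (adjusted p = 0.062), Bcl11b (0.081), Hlf (0.1), both Zeb2 regions (0.1 and 0.13) and the lower Tox region (0.092). Tcf7, the T cell factor TCF-1, had 1 region called only in naive T cells with 63.1 and 454.6 tags, Ets1 had 2 and Tox 1.

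T cell receptor genes had more naive T than ILC2 regions. The list of receptor chains and signalling proteins held 34 genes and 139 regions, of which 25 were called only in naive T cells, at 15 genes, and 3 only in ILC2s. Of 46 common regions 13 fell and 0 rose, at a median of -0.61, and 12 were narrower. Among the chains, the constant region Trac fell from 6715.5 and 8514.0 to 928.5 and 860.6 tags, a log2 fold change of -2.90 (SE 0.25, adjusted p = 0.0089). The region over Trbc2, a constant region of the beta chain, had 2226.0 and 3105.8 against 2370.8 and 2607.1 tags, so the 2 types overlapped, and its log2 fold change of 0.10 (SE 0.19) did not pass at an adjusted p of 0.85. Among surface proteins, Cd5 fell from 3151.7 and 2528.6 to 83.0 and 128.3 tags, a log2 fold change of -4.59 (SE 0.31, adjusted p = 0.0049). Cd28, the costimulatory receptor, fell from 2732.9 and 2375.0 to 327.9 and 243.5 tags and had a further naive T region. Cd2 fell with a log2 fold change of -3.21 (SE 0.30). Among kinases and adaptors, Lck fell from 2049.6 and 2759.8 to 473.0 and 503.7 tags, a log2 fold change of -2.10 (SE 0.14), and Fyn fell with -1.59 (SE 0.12) and Lat with -2.0 (SE 0.17). The promoters of Cd5, Lck and Prkcq are printed above, and Prkcq, a protein kinase C of the T cell synapse, fell from 2465.4 and 4296.2 to 1102.5 and 1201.9 tags. On the 4 libraries alone 4 of the 13 lost the call, Prkcq among them at an adjusted p of 0.099. Zap70, a kinase of the receptor, had 1135.1 and 1415.0 against 1037.9 and 917.2 tags and did not pass (log2 fold change -0.19, SE 0.16, adjusted p = 0.59). Lat, Themis and Fyn had 3 naive T regions each, and Cd6, Cd40lg, Prkcq and Rasgrp1 2 each. Txk, a Tec kinase, went the other way with an ILC2 region of 261.4 and 227.3 tags, and Trat1 and Rasgrp1 had 1 ILC2 region each. Ctla4, an inhibitory receptor of activated and regulatory T cells, had a naive T region with 558.4 tags in lavage and 40.6 in the lymph node.

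Genes of resting and recirculating T cells had 153 regions over 24 genes, with 14 called only in naive T cells and 2 only in ILC2s. Of 51 common regions 10 fell and 0 rose, at a median of -0.85, which was -0.29 in lavage and -1.16 in the lymph node. Their summed height was 21268.6 tags in lavage naive T cells and 62176.4 in lymph node ones, against 12794.0 and 12886.0 in ILC2s. The 2 naive T libraries thus differed on these genes by more than the lavage one differed from ILC2s. Ccr7, the chemokine receptor for lymph node entry, had 399.6 and 2260.0 against 748.4 and 852.4 tags over the gene, with a log2 fold change of -0.07 (SE 0.66), so the 2 types overlapped. Lef1, a partner of TCF-1, had 1157.3 and 2449.4 against 689.5 and 701.7 tags in the region over its start and did not pass at an adjusted p of 0.077. Genes that fell included Ms4a6b, a surface protein of T cells, from 1513.0 and 2598.5 to 81.4 and 136.2 tags, a log2 fold change of -4.05 (SE 0.27, adjusted p = 0.0049). Il6ra and Il6st, the chains of the IL-6 receptor, fell too, Il6ra from 627.3 and 2011.4 to 120.7 and 89.4 tags. S1pr1, the receptor for exit from lymph nodes, had 2 naive T regions and 2 common regions that fell. Bach2, a repressor that keeps T cells quiescent, had 3 naive T regions, 1 ILC2 region and 1 common region that fell from 210.6 and 305.1 to 54.5 and 54.8 tags. Klf2, the factor that drives S1pr1, fell with a log2 fold change of -0.91 (SE 0.16, adjusted p = 0.048). Of the 10 that fell, 4 lost the call on the 4 libraries alone, Il6ra (adjusted p = 0.066), both S1pr1 regions (0.06 and 0.096) and Klf2 (0.1).

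Lipid and amino acid metabolism genes had 57 regions over 28 genes. ILC2-only were 7 (12.3%, near the 11.7% of all regions) and naive-only 0 (against 2.97%). Of 30 common regions 1 rose and 1 fell, at a median of 0.10. Alox5, the enzyme that begins leukotriene synthesis, had 3 of the 7, with 410.9 and 603.6 tags over its start at chr6:116454489-116461809 and no Th2 peak. The amino acid transporter gene Slc7a8 rose from 107.8 and 218.6 to 628.2 and 620.2 tags, a log2 fold change of 2.21 (SE 0.21, adjusted p = 0.010). Ass1, the enzyme of arginine synthesis, fell with a log2 fold change of -1.18 (SE 0.20, adjusted p = 0.043), a call that was lost on the 4 libraries alone (adjusted p = 0.062) and without centring (0.08). Migration and residency genes had 89 regions over 24 genes. ILC2-only were 7 (7.9%, under the 11.7% of all regions) and naive-only 11 (12.4%, against 2.97%). Of 40 common regions 0 rose and 2, both of S1pr1, fell. Itgav, an integrin chain that binds matrix, had 3 ILC2 regions of 73.6 to 286.9 tags, and Rgs1 had 2. Cxcr5, the receptor for entry into B cell follicles, had 3 naive T regions of 56.4 to 130.4 tags. Cxcr3, a receptor of effector T cells, had a naive T region of 446.4 tags in lavage and 54.0 in the lymph node, and Gpr15 one of 329.8 and 49.6 tags.

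**Figure D5:**
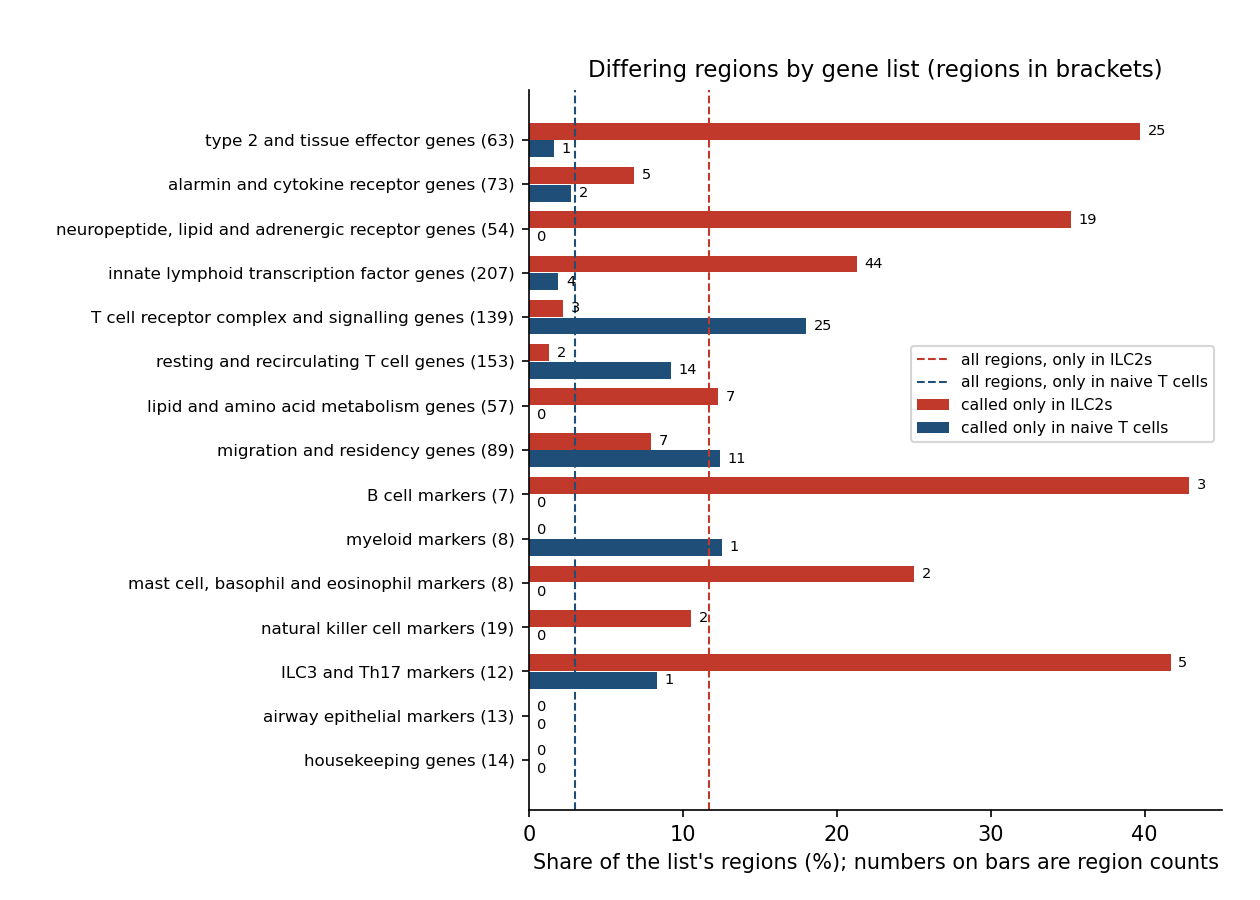
Share of each gene list's regions (x axis, percent) called in the ILC2 pair alone (red) or the naive T pair alone (blue), with the number of regions at each bar, for lists of genes by role, marker lists of other cell types and housekeeping genes. Dashed lines mark the shares over all regions, 11.7% and 2.97%. The longest naive T bar among the lists by role is that of the T cell receptor list, with 25 of 139 regions.

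Markers of other cell types were read in the same way, where 11.7% of all regions were ILC2-only and 2.97% naive-only. B cell markers summed to 0.0 and 264.5 tags in naive T cells against 459.8 and 351.7 in ILC2s, with Cd79a, Ms4a1, Cd22 and Blnk nearest to no region, and 3 of their 7 regions were called only in ILC2s. Myeloid markers had 362.4 and 910.5 tags in naive T cells against 600.9 and 718.3 in ILC2s, with Lyz2, Csf1r, Mpo, S100a8, S100a9 and Adgre1 nearest to none. Mast cell, basophil and eosinophil markers had 330.7 and 582.6 against 637.0 and 779.3 tags, with 2 ILC2 regions, at Cpa3 (219.7 and 321.9 tags) and Gata2 (176.0 and 116.1 tags). Of that list Mcpt8, Fcer1a, Ms4a2, Prg2, Epx and Siglecf were nearest to none. Natural killer cell markers had 1927.2 and 2743.0 against 1410.3 and 1237.3 tags, with 2 ILC2 regions and with Ncr1 and Gzma nearest to none. ILC3 and Th17 markers had 173.4 and 137.3 against 455.4 and 376.6 tags. ILC2-only were 5 of their 12 regions (41.7%), 3 of them at Il17a of 40.1 to 83.0 tags. One region, at Il23r, was naive-only (8.3%). The airway epithelial list, which also holds the endothelial gene Cdh5 (3 regions) and the fibroblast gene Col1a1 (1 region), had 0 differing regions of 13. The B cell list and the ILC3 and Th17 list had 0 common regions to test. The natural killer list had 6, and the myeloid, mast cell and airway lists had 3 each, and none passed the height test. With 2.47% of all common regions higher and 1.26% lower, so few regions cannot show whether these lists differ. The part of other cells in the differing regions was not tested. Housekeeping genes had 0 differing regions of 14, and 0 of 13 common regions passed, at a median of -0.02. The type 2 effector genes summed to 5596.7 tags in lavage and 3036.9 in lymph node naive T cells, against 13762.4 and 13858.5 in ILC2s.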

How the data were processed

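H3K4me2 was profiled by chromatin immunoprecipitation and sequencing. Alignment and peak calling used Bowtie, HOMER and the mm10 genome, per the submitters' processing notes, which give no versions. Per the file headers, HOMER findPeaks called peaks in each library separately (size 1000 bp, minimum distance 2500 bp, false discovery rate 0.001, 4-fold over IgG), with the thymus IgG library as background for these lists. The deposited signal is the normalized tag count per 10000000 tags, region size is in bp, and the authors' fold change (ratio) over IgG was used for 1 alternative. The labels give the IgG samples the H3K4me2 antibody, so what that ratio is set against is uncertain. A region absent from a list missed the authors' criteria and may still hold signal.

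Peaks within 500 bp were merged across the 4 libraries (Python 3.11.15, pandas 2.3.3). Heights and widths are sums over a library's peaks in a region. Regions called in all 4 libraries were tested on log2 values, median-centred, with limma 3.58.1 (trend) in R 4.3.3 and Benjamini-Hochberg adjustment over 13597 regions. Where both Th2 libraries called the region they entered the fit (11669 regions), and 1928 were fitted on 4 libraries. No pseudocount or filter was used. Regions took the nearest protein-coding or T cell receptor constant gene within 100 kb in RefSeq GRCm38.p6, found for 26518 regions (95.6%). Merging and the limma fit were tested on simulated data. Named regions are the 10 tallest of each differing kind and the 5 with the smallest p in each direction for height and width, named genes the 10 with the largest excess of each kind and the list members, and promoters at most 6, tallest first. A gene singled out within a list was picked for its values or its role. The members and lists were chosen with earlier results of these data known. Alternatives covered merge distance, peak thresholds, centring, the libraries fitted, a replicate block, left-out libraries and the gene distance. Some list members are not reported here by name, and the counts over their lists include them.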

Additional observations from a re-analysis of the deposited data

Results flagged for a closer look

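The balance of differing calls had opposite signs at the 2 sites. In lavage, regions called in the ILC2 and not the naive T library exceeded the reverse by 4467, while in the lymph node the difference was -418. With 1 library per type and site this was not tested. The lavage naive T library had the fewest peaks of the 4, and its part in the difference was not tested.

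The median log2 fold change of height of the alarmin and cytokine receptor genes was -0.12 in lavage and 0.53 in the lymph node. For the housekeeping genes it was -0.08 and 0.04. Neither difference was tested, for the same reason.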

How the results depend on the processing

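Counts of ILC2-only and naive-only regions were within 1.5 times of 3234 and 824 at merge distances of 0 and 2000 bp (3239 and 821, 3059 and 791), at 8-fold over IgG (2840 and 794) and without chromosomes X and Y (3184 and 798, chosen after the data were seen). They moved to 1861 and 1275 with equal numbers of peaks and to 1948 and 680 with peaks of at least 80 tags. Leaving out 1 library gave 4054 to 5072 and 982 to 5052.

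Heights passed the test at 336 higher and 172 lower regions. Other fits gave 258 and 192 without centring, which moved the median log2 fold change of all regions from -0.0126 to -0.196, 341 and 197 over regions called in all 6 libraries, 334 and 182 at a mean of at least 100 tags and 349 and 176 with a pseudocount of 10. The 4 libraries alone gave 123 and 62, and tags per kb 63 and 22. Leaving out 1 library gave 0 to 1653 higher and 0 to 914 lower, and 0 to 792 wider and 0 to 639 narrower. Widths, at 278 wider and 172 narrower, gave 178 and 113 with the 4 libraries alone. A left-out ILC2 or naive T library leaves 1 sample of its type, which is assumed to vary like the other types. Of 508 regions that changed in height, the fit on 4 libraries called 177 again, the fit without centring 332, tags per kb 63 and the fits without an ILC2 library 0 and 12. Of 54 regions that changed in height and are named or belong to a list, the call was lost at 26 on the 4 libraries alone, 25 without either Th2 library, 44 in tags per kb and 8 without centring. Without an ILC2 library it was lost at all 54 (lavage) or at 44 (lymph node), and without either naive T library at 0. In tags per kb 1 more reversed, the Rora region at 69027804, at -0.09. Of 10 named widths, all lost the call without either ILC2 library.

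The replicate number marks the site. Deviations of same-numbered libraries correlated across regions at -0.06 for naive T cells with ILC2s, 0.11 for naive T with Th2 cells and 0.26 for ILC2s with Th2 cells. The main fit did not use the number as a block. With 1 library per type and site, these correlations cannot show that site may be left out. With the number as a replicate block the fit gave 304 higher, 166 lower, 141 wider and 98 narrower regions. With the block on 4 libraries, chosen after the data were seen, it gave 27 higher, 19 lower, 0 wider and 0 narrower, with 1817 widths at an unadjusted p under 0.05. The block ended the call at 6 of the 54 regions, those of Csf2, Ubash3a, Prkcq, Ass1, Tox and Klf2 (adjusted p of 0.052 to 0.079), and on 4 libraries at 38 of the 54 and at all 10 widths. Sites taken alone gave 6227 and 1683 regions (lavage) and 5142 and 5532 (lymph node). The share of regions with a gene start, and its alternative within 5000 bp, was not used because listed starts cover 79.8% of genes. With cover of at least 50% in place of any shared base, 0.87% of ILC2 regions and 87.01% of naive T regions had a spleen peak. Depth limits regions near 40 tags, where a missing call is not a missing signal.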

Other observations

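Genes induced by interferon were chosen by symbol after the tallest naive T regions were seen. Of the 54 genes, 13 were the nearest of no region, and the others had 67 regions. Called only in naive T cells were 11 regions (16.4%, against 2.97% of all regions) and only in ILC2s 1 (1.5%, against 11.7%). The summed height of the list was 21732.8 and 23929.3 tags in naive T cells against 12533.7 and 10228.8 in ILC2s. Ifit1bl1 had 2 naive T regions, the taller with 620.2 and 723.1 tags, against 40.5 and no peak in Th2 cells. Ifit3 had 1 with 456.0 and 227.5 tags, and the neighbouring Ifit2 had 398.7 and 597.2 tags in naive T cells against 109.8 and 94.6 in ILC2s, a log2 fold change of -2.08 (adjusted p = 0.0066 with limma). Ifi214 had a naive T region with 650.3 and 555.4 tags. The antiviral genes Oas1a, Oas1f and Oas2 had 1 each, of 44.3 to 238.1 tags, with no Th2 peak. Of 35 common regions 1 fell and 0 rose, at a median of -0.42, where 1.26% of all common regions fell and 2.47% rose.

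The heights of Klrg1, a lectin receptor of ILC2s and effector T cells, were 271.6 tags in lavage naive T cells with no peak in lymph node ones, and 1553.0 and 1697.7 tags in ILC2s, in the region over the gene. This gene was chosen after its values were seen.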
